A study of Mus musculus with 12 samples.

Results

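The 34 genes described here belong to the synthesis of cholesterol, the control of its uptake, its efflux and the synthesis of fatty acids. They were taken by name from a gene table of 57073 gene models, each name matched 1 row, and all 34 were among the 18275 genes that passed a filter on low counts and were tested. The samples were whole retinas of C57BL/6 mice at postnatal day 17, sequenced as poly-A RNA. There were 6 libraries of the oxygen-induced retinopathy group (OIR, labelled with 75% oxygen) and 6 of the normoxic air group. The groups share strain, age and tissue, and the labels name no allele, no length of exposure, no sex and no pooling of animals. In this model, high oxygen prunes the growing retinal capillaries of the pup, and the later shortage of oxygen in room air drives abnormal vessel growth. Total counts ranged from 17366045 to 21594618 in OIR libraries and from 17361979 to 19390627 in normoxic libraries. The labels do not say whether each library is a separate animal, so p-values reflect only library-to-library spread, some of which may be technical.

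Cells make cholesterol from acetyl-CoA by way of mevalonate, farnesyl diphosphate, squalene and lanosterol. The pathway is set by the SREBP transcription factors, which the escort protein SCAP carries out of the endoplasmic reticulum when membrane sterol is low and which INSIG proteins hold back when it is high. The LXR nuclear receptors sense oxysterols and act the other way, raising genes of efflux and, through the ubiquitin ligase encoded by Mylip, lowering lipoprotein receptors at the cell surface. The retina both makes sterol locally and takes it up from the circulation, and its Muller glia are regarded as a main site of synthesis.

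Of the 18 enzymes of cholesterol synthesis, 12 were lower in OIR retinas, 1 was higher and 5 did not pass the test. Both efflux genes among the 34 were higher. Of the 34 genes, 20 passed (31% of all tested genes did), and of these 15 fell and 5 rose, while 14 did not pass an adjusted p of 0.05 in edgeR's quasi-likelihood test with Benjamini-Hochberg adjustment over all tested genes. The share that fell was 44.1%, where 14.8% of all tested genes fell. The share that rose was 14.7%, where 16.2% of all tested genes rose, which is close to the background. The median log2 fold change (OIR over normoxic) was -0.19 over the 34 genes and -0.01 over all tested genes. In 12 of the 34 genes (35.3%) every OIR library lay below every normoxic library, which held for 6.6% of all tested genes. In 2 genes (5.88%) every OIR library lay above, which held for 9.47% of all tested genes. Outside the thinly counted Fdps, the decreases that passed the test ran from 13% for Sqle to 37.9% for Insig1.

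**Figure D1:**
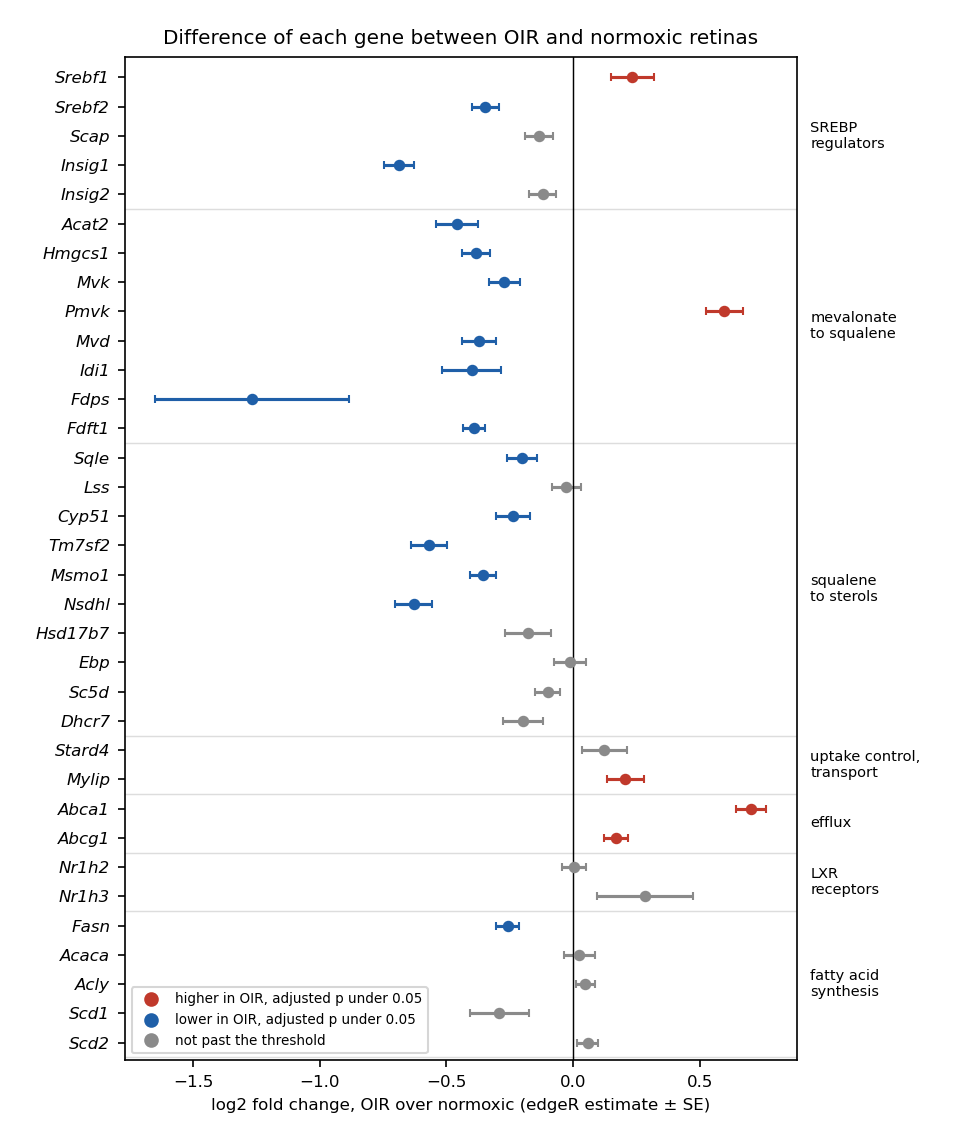
Log2 fold change of OIR over normoxic retinas on the horizontal axis for the 34 genes, in rows grouped by role, with points as edgeR estimates and bars as ± SE. Of the 18 synthesis enzymes, 17 lie left of 0 and Pmvk lies right of it at 0.60, while Abca1 at 0.70 is the highest of all 34.

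Promoter windows of some of these genes hold letters that the factors of this pathway are known to bind. RefSeq windows of build GRCm38.p6, from 250 bases before to 50 bases after an annotated start, were found for 27 of the 34 genes, 12 of the 15 that fell among them, and not for Stard4, Fdft1, Abcg1, Sqle, Fdps, Scd1 and Scd2, and 4 motifs were searched on both strands. TCACNCCA, the core of the sterol regulatory element bound by SREBP, was in the windows of 3 of the 27 genes and of 4.97% of all 27025 genes with windows. The 3 genes were Hmgcs1, Msmo1 and Srebf2, which all fell. CACGTG, the E box that SREBP can also bind, was in 6 of the 27 (8.09% of all genes), namely Insig1, which fell, Abca1, which rose, and Dhcr7, Hsd17b7, Sc5d and Scap. CCAAT, the site of the SREBP partner NF-Y, was in 21 of the 27 and in 41.1% of all genes, with 11 of the 12 that fell, 3 of the 4 that rose and 7 of the 11 that did not pass. A spaced direct repeat of the kind bound by LXR was in 3 of the 27 and in 0.226% of all genes, namely Abca1 and Srebf1, which rose, and Fasn, which fell. No matches of different motifs shared a base. Further spellings were tried, and these 4 were chosen after their matches were seen, so the counts are a description.

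The windows of the genes with the sterol regulatory element core, of Insig1 with the E box and of Abca1 with the E box and the LXR-type repeat are printed 5′ to 3′ on the strand of the gene, with the letters of these matches in capitals and CCAAT matches left in lower case. They are shown because Insig1 and Abca1 had the lowest adjusted p among the 34 genes and because the other windows hold the SREBP core.
Hmgcs1 promoter, chr13:119690101-119690400, plus strand: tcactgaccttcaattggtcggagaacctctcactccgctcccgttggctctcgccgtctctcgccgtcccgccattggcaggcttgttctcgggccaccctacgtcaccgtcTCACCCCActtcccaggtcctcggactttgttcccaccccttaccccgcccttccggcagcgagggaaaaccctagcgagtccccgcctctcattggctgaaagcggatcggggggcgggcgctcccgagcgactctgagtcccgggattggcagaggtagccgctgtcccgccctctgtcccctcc
Msmo1 promoter, chr8:64733529-64733828, minus strand: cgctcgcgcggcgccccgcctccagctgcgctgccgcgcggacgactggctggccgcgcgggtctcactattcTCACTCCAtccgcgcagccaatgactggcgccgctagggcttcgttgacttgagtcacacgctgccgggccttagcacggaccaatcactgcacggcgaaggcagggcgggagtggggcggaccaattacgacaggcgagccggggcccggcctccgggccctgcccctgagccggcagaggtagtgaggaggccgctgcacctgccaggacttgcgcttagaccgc
Srebf2 promoter, chr15:82147019-82147318, plus strand: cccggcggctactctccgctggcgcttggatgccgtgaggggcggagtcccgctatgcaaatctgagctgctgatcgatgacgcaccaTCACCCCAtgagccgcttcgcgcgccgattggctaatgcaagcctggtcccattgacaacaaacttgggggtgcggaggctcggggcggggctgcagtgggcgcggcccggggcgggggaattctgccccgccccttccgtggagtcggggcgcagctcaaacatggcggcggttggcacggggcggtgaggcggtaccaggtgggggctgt
Insig1 promoter, chr5:28071162-28071461, plus strand: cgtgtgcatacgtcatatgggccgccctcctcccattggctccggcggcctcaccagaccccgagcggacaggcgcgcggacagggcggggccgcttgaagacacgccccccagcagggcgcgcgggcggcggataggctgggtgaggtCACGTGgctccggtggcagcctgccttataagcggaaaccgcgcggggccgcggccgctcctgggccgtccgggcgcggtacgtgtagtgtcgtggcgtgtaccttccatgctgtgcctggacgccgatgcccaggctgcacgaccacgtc
Abca1 promoter, chr4:53159846-53160145, minus strand: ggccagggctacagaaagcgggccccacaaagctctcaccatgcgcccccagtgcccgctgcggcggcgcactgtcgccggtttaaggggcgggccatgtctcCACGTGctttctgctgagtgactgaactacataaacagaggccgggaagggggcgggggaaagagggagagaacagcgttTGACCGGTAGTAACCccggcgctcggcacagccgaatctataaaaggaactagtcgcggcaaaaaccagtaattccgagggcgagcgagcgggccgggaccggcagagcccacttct
Counted from the annotated start, the core began at -137 in Hmgcs1, -177 in Msmo1 and -162 in Srebf2. In Abca1 the repeat stood on the other strand, as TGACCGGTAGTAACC, and began at -67. The same letters were found in the window of Fasn, at -225. A match is neither a site nor a cause, and a window without one says nothing of the factor.

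The regulators of the pathway did not move as a block. Insig1, which encodes the sterol-dependent anchor of SCAP and is itself an SREBP target (chromosome 5, 28276361 to 28283660 in build GRCm39), had a lowest, median and highest level of 30.6, 34.7 and 39.6 CPM (counts scaled to library size) in OIR libraries, against 53.1, 56.4 and 58.5 CPM in normoxic libraries. The groups lay well apart. Insig1 fell by 37.9% (log2 -0.69 ± 0.06, SE, edgeR adjusted p = 7.14e-08). Srebf2, which encodes the SREBP that mainly drives cholesterol genes (chromosome 15, 82031382 to 82089580), had 105, 111 and 126 CPM in OIR libraries (lowest, median, highest), against 130, 145 and 155 CPM in normoxic libraries. Its groups did not overlap, and it fell by 21.3% (log2 -0.35 ± 0.05, edgeR adjusted p = 8.79e-05).

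Srebf1, which encodes the SREBP linked more to fatty acid genes and is an LXR target, went the other way. It had 130, 144 and 189 CPM in OIR libraries, against 112, 126 and 152 CPM in normoxic libraries, so the groups overlapped. It rose 1.18-fold (log2 0.23 ± 0.08, edgeR adjusted p = 0.0397), and OIR replicate 6 was its highest library. The call was lost without OIR replicate 1 (adjusted p = 0.0709), OIR replicate 6 (0.0951) or normoxic replicates 2 (0.0528), 4 (0.077), 5 (0.082) or 6 (0.0783), each left out in turn in edgeR. Scap averaged 133 ± 9.36 CPM in OIR and 146 ± 9.4 CPM in normoxic libraries (SD, n = 6 each), with a log2 fold change of -0.13 ± 0.05 that did not pass (edgeR adjusted p = 0.0699). It passed without OIR replicate 5 (edgeR adjusted p = 0.0158) or normoxic replicate 2 (0.0242), and with the set of replicate numbers (1 to 3 or 4 to 6) as a block (0.0423). Insig2, the second anchor gene, averaged 59.5 ± 4.19 and 64.6 ± 3.43 CPM in OIR and normoxic libraries, and its log2 fold change of -0.12 ± 0.05 did not pass (edgeR adjusted p = 0.106), though it did without OIR replicate 6 (0.0445) and within replicates 1 to 3 (0.0221). Because Insig1 fell by more than Insig2, the ratio of Insig2 to Insig1 in FPKM, the deposited unit scaled to gene length and library size, was 1.46 to 1.66 in OIR libraries and 0.958 to 1.07 in normoxic libraries.

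All 8 genes of the branch that leads to squalene passed the test, 7 of them lower and 1 higher in OIR. The branch opens with Acat2, the cytosolic thiolase that joins acetyl-CoA units. Acat2 averaged 25.3 ± 2.66 CPM in OIR and 34.8 ± 3.86 CPM in normoxic libraries (SD, n = 6 each) and fell by 27.3% (edgeR adjusted p = 3.17e-04). A closely similar gene, Acat3, makes its count less certain. Hmgcs1, the synthase of the next step (chromosome 13, 120151915 to 120169796), had 72.8, 83.6 and 88.9 CPM in OIR libraries (lowest, median, highest), against 101, 107 and 118 CPM in normoxic libraries. The groups did not overlap, and Hmgcs1 fell by 23.4% (log2 -0.38 ± 0.06, edgeR adjusted p = 3.43e-05).

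The kinases that phosphorylate mevalonate in sequence moved in opposite directions. Mvk, the first kinase, averaged 33.3 ± 1.65 CPM in OIR and 40.2 ± 3.3 CPM in normoxic libraries and fell by 17.1% (edgeR adjusted p = 0.00205). Pmvk, the kinase of the next step (chromosome 3, 89361848 to 89376320), had 63.3, 70.7 and 81.3 CPM in OIR libraries, against 42.5, 47.9 and 54 CPM in normoxic libraries. Every OIR library lay above every normoxic one, and Pmvk rose 1.51-fold (log2 0.60 ± 0.07, edgeR adjusted p = 6.9e-06). It was the only synthesis enzyme among the 18 that rose. Mvd, the decarboxylase that follows, averaged 25.7 ± 2.57 CPM in OIR and 33.3 ± 1.45 CPM in normoxic libraries and fell by 22.7% (edgeR adjusted p = 3.78e-04).

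Idi1, which isomerises isopentenyl diphosphate, averaged 11.4 ± 1.58 CPM in OIR and 15 ± 2.43 CPM in normoxic libraries and fell by 24.3% (edgeR adjusted p = 0.0124), with groups that overlapped. Fdft1, squalene synthase, commits farnesyl diphosphate to sterols (chromosome 14, 63382599 to 63417027). It had 64.6, 70.1 and 74 CPM in OIR libraries, against 88.7, 92.1 and 93.3 CPM in normoxic libraries. The groups lay apart and Fdft1 fell by 23.7% (log2 -0.39 ± 0.04, edgeR adjusted p = 1.83e-06). Its model overlaps 774 bases of the antisense gene Ctsb, which rose (log2 0.25, edgeR adjusted p = 1.04e-04), and how strand was handled in counting is not stated.

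Fdps, which makes farnesyl diphosphate, stood apart from the other enzymes because it was hardly counted. It had 61 counts summed over the OIR libraries and 148 over the normoxic libraries. Per library it had 0.322 to 0.842 CPM in OIR and 0.436 to 2 CPM in normoxic retinas. Normoxic replicates 1 and 6 lay within the OIR range, at 10 and 8 counts, and the other 4 normoxic libraries at 30 to 35 counts lay above it. The log2 fold change was -1.27 ± 0.38 (edgeR adjusted p = 0.0164). Fdps has processed pseudogenes of near-identical sequence, so its counts are uncertain and its low level is no measure of the enzyme's mRNA.

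**Figure D2:**
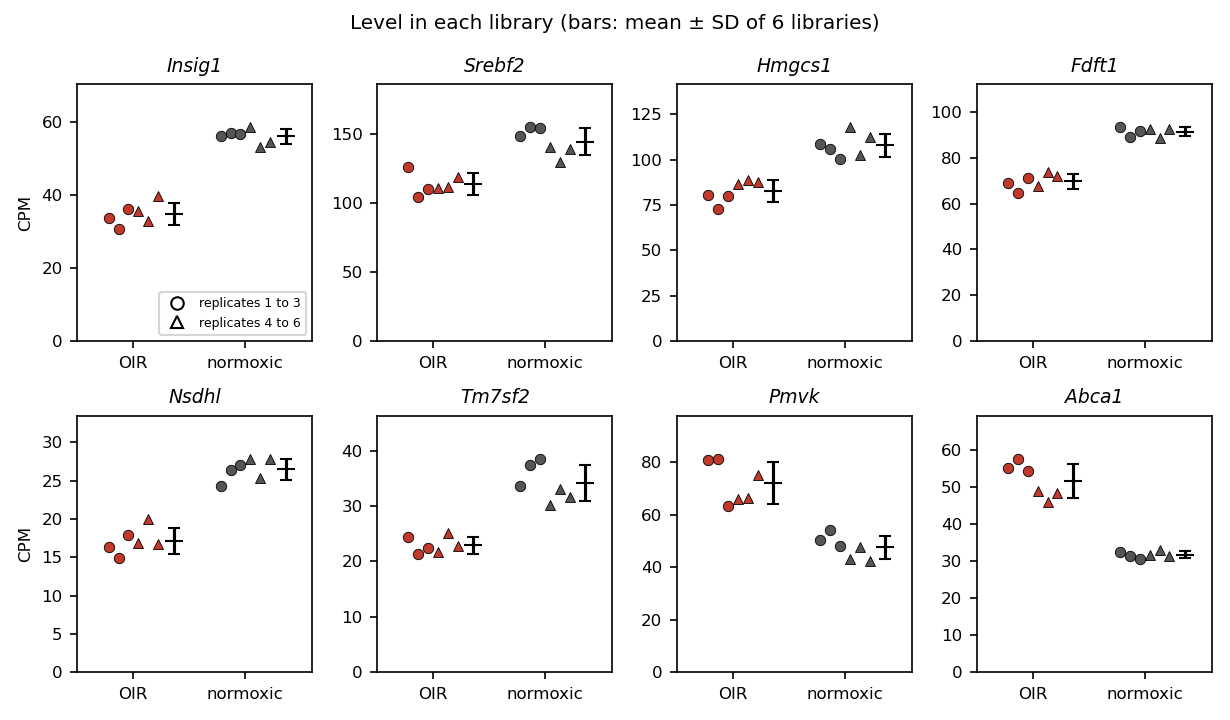
Level in CPM (vertical axes from 0) of 8 genes in each of the 12 libraries, OIR in red left of normoxic in grey, circles for replicates 1 to 3, triangles for replicates 4 to 6, bars for mean ± SD of 6 libraries. For Insig1, Srebf2, Hmgcs1, Fdft1, Nsdhl and Tm7sf2 every OIR library lies below every normoxic one, and for Pmvk and Abca1 every OIR library lies above.

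Of the 10 enzymes that turn squalene into cholesterol, 5 fell, 5 did not pass and none rose in edgeR's test, and all 10 had a negative log2 fold change. DESeq2 called the same 5 lower, and since no estimate was above 0 in either fit on all libraries, 0 rose at an unadjusted p under 0.05. The largest decrease was that of Nsdhl, a dehydrogenase that removes methyl groups of the sterol ring (chromosome X, 71962163 to 72002120). Nsdhl had 14.9, 16.7 and 20 CPM in OIR libraries (lowest, median, highest), against 24.3, 26.7 and 27.8 CPM in normoxic libraries. The groups did not overlap, and it fell by 35.3% (log2 -0.63 ± 0.07, edgeR adjusted p = 3.29e-06). Tm7sf2, a reductase of the sterol nucleus (chromosome 19, 6112851 to 6118403), had 21.3, 22.6 and 25.1 CPM in OIR libraries, against 30.2, 33.3 and 38.5 CPM in normoxic libraries. Its groups also lay apart, and it fell by 32.7% (log2 -0.57 ± 0.07, edgeR adjusted p = 6.26e-06). Its model shares 532 bases with Vps51 on the same strand, which had a log2 fold change of -0.03 (edgeR adjusted p = 0.777).

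Msmo1, the methylsterol oxidase that acts before Nsdhl, averaged 48.8 ± 2.12 CPM in OIR and 62.4 ± 3.53 CPM in normoxic libraries and fell by 21.8% (edgeR adjusted p = 2.76e-05). Sqle, the epoxidase of squalene and a rate-controlling step, fell by only 13% (56.7 ± 4.39 against 65.2 ± 4.67 CPM in OIR and normoxic libraries, edgeR adjusted p = 0.0162), with overlapping groups. Cyp51, the lanosterol demethylase, averaged 37 ± 2.08 CPM in OIR and 43.6 ± 4.38 CPM in normoxic libraries and fell by 15.2% (edgeR adjusted p = 0.0103). For Cyp51 the groups touched closely without overlap, at 38.3 CPM in the highest OIR library and 38.7 CPM in the lowest normoxic one.

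Among the 5 enzymes that did not pass were lanosterol synthase and the last steps to cholesterol. Lss, lanosterol synthase, averaged 39.4 ± 2.91 CPM in OIR and 40.2 ± 1.72 CPM in normoxic libraries (log2 -0.03 ± 0.06). Ebp, the sterol isomerase, averaged 28.2 ± 1.69 and 28.4 ± 1.84 CPM in OIR and normoxic libraries (log2 -0.01 ± 0.06). Sc5d, a desaturase, and Hsd17b7, a ketoreductase, had log2 fold changes of -0.10 ± 0.05 and -0.18 ± 0.09. Dhcr7, the final reductase, had 40.9, 43.4 and 45.7 CPM in OIR libraries, against 42.1, 50 and 58.5 CPM in normoxic libraries, with a log2 fold change of -0.20 ± 0.08 (edgeR adjusted p = 0.0646). Dhcr7 passed without normoxic replicate 1 (edgeR adjusted p = 0.0243), 2 (0.0229) or 3 (0.0492), and with the set of replicate numbers as a block (0.017).

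Levels between enzymes were compared in FPKM. In normoxic retinas the enzymes other than Fdps ranged from 2.48 ± 0.28 FPKM for Hsd17b7 to 27.8 ± 2.59 FPKM for Pmvk (SD, n = 6). In OIR retinas the same enzymes were again lowest and highest, at 2.17 ± 0.124 FPKM for Hsd17b7 and 41.9 ± 4.58 FPKM for Pmvk. Pmvk, Hmgcs1 and Fdft1 were the highest enzymes in both groups, at 41.9, 17.9 and 16.9 FPKM in OIR and 27.8, 23.5 and 22.2 FPKM in normoxic retinas. In the normoxic libraries Hmgcs1 (SD 1.37) and Fdft1 (SD 0.398), neighbours in this order, differed by less than the spread of Hmgcs1.

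**Figure D3:**
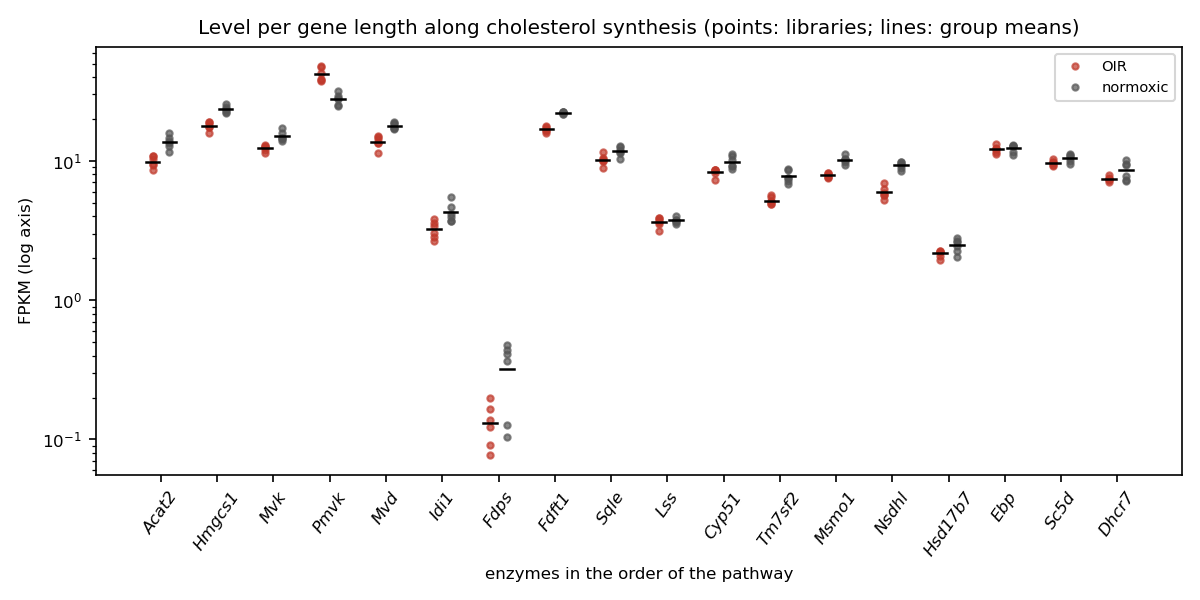
Level in FPKM on a log axis of the 18 enzymes in the order of the pathway, with points for libraries and lines for group means, OIR in red left of normoxic in grey. Pmvk is the one enzyme at which all OIR points stand above the normoxic points, and Fdps lies far below all others.

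The efflux genes among the 34, Abca1 and Abcg1, were both higher. Among the listed related genes outside the 34, the ABC transporter genes that were tested were lower in edgeR. They were Abcg4 (log2 -0.30, adjusted p = 3.4e-04), Abca2 (-0.32, 1.54e-04) and Abca7 (-0.44, 0.0117), with overlapping groups only for Abca7. ABC transporter genes outside these lists were not examined. Abca1, which loads cholesterol onto apolipoprotein A-I and is a classic LXR target (chromosome 4, 53030787 to 53159895), had 46, 51.4 and 57.5 CPM in OIR libraries (lowest, median, highest), against 30.5, 31.5 and 33 CPM in normoxic libraries. Every OIR library lay above every normoxic one, and the normoxic libraries were tightly grouped. Abca1 rose 1.63-fold (log2 0.70 ± 0.06, edgeR adjusted p = 6.01e-08). Abcg1, which exports sterol to mature lipoproteins, rose 1.12-fold (108 ± 5.46 CPM in OIR and 96.3 ± 4.72 CPM in normoxic libraries, edgeR adjusted p = 0.0103), with overlapping groups. Mylip, which encodes a ubiquitin ligase that degrades lipoprotein receptors and is an LXR target, averaged 38.3 ± 4.38 CPM in OIR and 33.2 ± 2.14 CPM in normoxic libraries and rose 1.15-fold (edgeR adjusted p = 0.0393). It was not past the test without OIR replicates 1 (adjusted p = 0.087), 4 (0.074) or 6 (0.0954) or without normoxic replicates 1 (0.0569), 2 (0.0781), 3 (0.0801) or 6 (0.0744), each left out in turn in edgeR. Without Srebf1 and Mylip, as in the fits that left out OIR replicate 1 or 6 or normoxic replicate 2 or 6, 3 of the 34 genes rose in place of 5.

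The LXR genes themselves did not pass. Nr1h2, which encodes LXR-beta, averaged 108 ± 6.82 CPM in OIR and 107 ± 4.34 CPM in normoxic libraries (log2 0.00 ± 0.05). Nr1h3, which encodes LXR-alpha, averaged 4.54 ± 1.16 and 3.73 ± 0.855 CPM in OIR and normoxic libraries, and its log2 fold change of 0.28 ± 0.19 did not pass (edgeR adjusted p = 0.282). Per gene length Nr1h2 stood well above Nr1h3, with a median ratio in FPKM of 17.7 over the OIR libraries and 22.2 over the normoxic libraries. Stard4, which encodes a carrier of sterol between membranes, averaged 20.1 ± 1.73 and 18.5 ± 2.44 CPM in OIR and normoxic libraries (log2 0.12 ± 0.09, not past the test).

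Of the 5 genes of fatty acid synthesis and desaturation, only Fasn passed in the edgeR fit on all libraries. Fasn, fatty acid synthase (chromosome 11, 120696672 to 120715373), had 116, 123 and 130 CPM in OIR libraries, against 136, 149 and 157 CPM in normoxic libraries. The groups did not overlap, and Fasn fell by 16.4% (log2 -0.26 ± 0.05, edgeR adjusted p = 2.46e-04). The genes of the earlier steps that supply its substrates had log2 fold changes near 0, at 0.05 ± 0.04 for Acly, ATP citrate lyase, and 0.03 ± 0.06 for Acaca, acetyl-CoA carboxylase. The stearoyl-CoA desaturase genes are near relatives, and their counts are less certain for that. Scd2, the form that prevails in neural tissue, was the highest of the 34 genes per length, at 64.7 ± 3.24 FPKM in OIR and 62.6 ± 1.2 FPKM in normoxic retinas, with a log2 fold change of 0.06 ± 0.04. Scd1, the form best known from liver and fat, had 1.33 ± 0.2 FPKM in OIR and 1.64 ± 0.154 FPKM in normoxic retinas. Its log2 fold change of -0.29 ± 0.12 did not pass (edgeR adjusted p = 0.0675) except without OIR replicate 3 (0.03) or normoxic replicate 3 (0.0436).

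Normoxic replicates 1 to 3 and 4 to 6 stood apart from each other in these libraries, and the labels name no batch. Replicates 4 to 6 lay all above replicates 1 to 3 in 19.3% of the tested genes and all below in 19.2% in the normoxic group, and in 9.72% and 9.65% in the OIR group. Among the 34 genes this split was seen in 11 in the normoxic group (5 with replicates 4 to 6 above) and in 8 in the OIR group (3 above). Dhcr7 showed it in the normoxic group, at 54.8 to 58.5 CPM in replicates 4 to 6 and 42.1 to 45.3 CPM in replicates 1 to 3. The comparison was therefore also made within each set of numbers.

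Within replicates 1 to 3, 13 of the 34 genes fell and 3 rose in edgeR (18.6% and 20.3% of all tested genes did), and within replicates 4 to 6, 15 fell and 4 rose (8.36% and 11.6%). Within both sets, with 3 OIR against 3 normoxic libraries in each, 11 of the 15 decreases and 2 of the 5 increases were called again in edgeR. The 11 (5.63% of all tested genes fell in all 3 fits) were Srebf2, Insig1, Acat2, Hmgcs1, Mvk, Mvd, Fdft1, Tm7sf2, Msmo1, Nsdhl and Fasn. The increases called in both sets were Pmvk and Abca1 (9.15% of all tested genes rose in all 3 fits). Pmvk had log2 fold changes of 0.56 within replicates 1 to 3 and 0.64 within 4 to 6, and Abca1 had 0.82 and 0.58. Sqle, Cyp51 and Idi1 passed within replicates 4 to 6 and not within 1 to 3. Cyp51 had log2 fold changes of -0.06 within 1 to 3 (edgeR adjusted p = 0.491) and -0.40 within 4 to 6 (0.00123). Sqle had -0.07 (0.418) and -0.32 (0.0026), and Idi1 had -0.23 (0.176) and -0.55 (0.00977). Dhcr7, not called with all libraries, had -0.02 (0.825) and -0.34 (0.00125). Srebf1 had 0.08 (0.252) and 0.40 (0.00794), and Abcg1 had 0.12 (0.069) and 0.22 (0.0173). Insig2 (0.0221 within 1 to 3), Mylip (0.0204) and Fdps (0.0343) passed within replicates 1 to 3 and not within 4 to 6 (0.711, 0.244 and 0.124). Whether these genes differ between the sets of numbers was not tested.

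**Figure D4:**
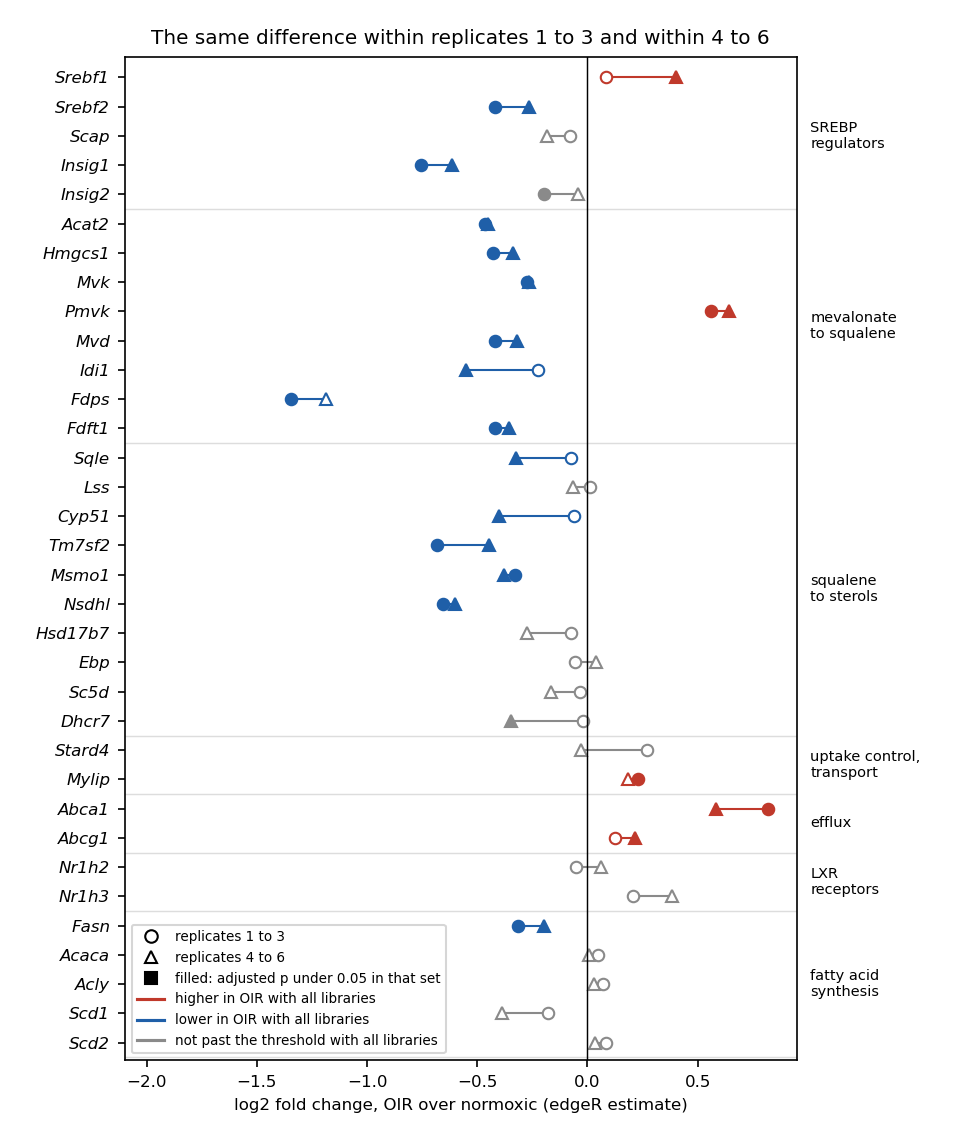
Log2 fold change of OIR over normoxic retinas within replicates 1 to 3 (circles) and within replicates 4 to 6 (triangles) for the 34 genes, filled where the edgeR adjusted p in that set was under 0.05. The symbols of Acat2, Mvk, Msmo1 and Nsdhl nearly coincide, while those of Cyp51, Sqle, Dhcr7 and Srebf1 lie apart.

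Genes of neighbouring pathways were taken from 4 further lists. Of 15 fatty acid and sterol genes linked to SREBP outside the 34, 3 fell, 1 rose and 11 did not pass, with a median log2 fold change of -0.04. These counts are near the shares of all tested genes, 14.8% lower and 16.2% higher, or below them. Elovl6, a fatty acid elongase, fell by 27.6% (54 against 76 CPM, medians of OIR and normoxic libraries; edgeR adjusted p = 3.01e-05), with groups that did not overlap. Pcyt2, an enzyme of phosphatidylethanolamine synthesis, fell by 25.8% (edgeR adjusted p = 5.35e-05), also without overlap. Me1, malic enzyme, which supplies reducing power for lipid synthesis, rose 1.23-fold (edgeR adjusted p = 0.0024; 0.193 within replicates 4 to 6). Of 5 tested genes linked to LXR, out of 7 listed, 1 rose, 3 fell and 1 did not pass, with a median of -0.32. The shares of all tested genes were 16.2% higher and 14.8% lower. Lpcat3, a phospholipid remodelling enzyme, rose 1.36-fold with groups apart (edgeR adjusted p = 4.33e-04), while Arl4c, a small GTPase gene, fell by 20.1% (8.39e-04) and Lpl, lipoprotein lipase, by 22% (0.00209; 0.24 within replicates 1 to 3).

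Of 21 tested genes of sterol storage, traffic, lipoprotein receptors and oxysterols, out of 24 listed, 6 rose, 8 fell and 7 did not pass, with a median of -0.07. Over all tested genes, 16.2% rose and 14.8% fell. Lcat, which esterifies cholesterol on lipoproteins, rose 3.48-fold. It had 10.7, 13.2 and 14.2 CPM in OIR libraries (lowest, median, highest), against 2.86, 3.64 and 4.83 CPM in normoxic libraries, with the groups far apart (edgeR adjusted p = 1.37e-08). Npc2, which hands cholesterol out of lysosomes, rose 1.36-fold (edgeR adjusted p = 1.27e-05). Cyp46a1, the neuronal hydroxylase that turns cholesterol into a removable oxysterol, fell by 26.5% (28.2 against 38.6 CPM, medians of OIR and normoxic libraries; edgeR adjusted p = 6.67e-05). Of 15 genes of the isoprenoid branch and side steps, 2 rose, 1 fell and 12 did not pass, where 31% of all tested genes passed, with a median of -0.02. These were Icmt, a methyltransferase of prenylated proteins (1.19-fold, edgeR adjusted p = 7.22e-04), Lbr, a sterol reductase and lamin receptor (1.17-fold, 0.0181), and Coq2 of ubiquinone synthesis, which fell by 9.38% (0.0473). Within replicates 4 to 6 Lbr had a log2 fold change of 0.09 (edgeR adjusted p = 0.524) and Coq2 -0.03 (0.761). Lbr also lost its call without normoxic replicates 1 (adjusted p = 0.05) or 2 (0.0503), and Coq2 without OIR replicates 1 (0.0607), 2 (0.0994), 3 (0.0604), 5 (0.0816) or 6 (0.0732) or normoxic replicates 1 (0.0999), 2 (0.116) or 3 (0.0906), in edgeR.

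Markers of several retinal cell types also differed between the groups. In whole retina, fewer cells of a type and less RNA per cell cannot be told apart. Of 4 Muller glia markers, 3 fell and 1 rose, and their summed level was 1767 to 2414 CPM in OIR and 2301 to 2622 CPM in normoxic libraries. Rlbp1, which encodes a retinoid carrier, had a log2 fold change of -0.36 ± 0.06 and Aqp4, the water channel gene, -0.35 ± 0.06. The glutamine synthetase gene Glul had -0.28 and the glutamate transporter gene Slc1a3 0.33. All 5 endothelial markers rose (summed 297 to 409 CPM in OIR, 172 to 222 CPM in normoxic libraries), as did all 7 of microglia and macrophages (110 to 152 against 45.5 to 53.8 CPM), all 3 of reactive glia (696 to 1118 against 224 to 277 CPM), all 3 of astrocytes (41.4 to 50.1 against 17.6 to 27.7 CPM) and all 4 of pericytes and smooth muscle (380 to 579 against 128 to 181 CPM). Their part in the changes of the 34 genes was not tested. The 4 rod markers had summed levels of 36161 to 41873 CPM in OIR and 32642 to 37246 CPM in normoxic libraries.

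Genes of tissues outside the neural retina were also counted. The 7 lens genes summed to 1.48 to 9.36 CPM in OIR and 5.04 to 31.3 CPM in normoxic libraries, with 3 of 5 tested lower and Lim2 at 0 in every library. With the crystallin level as a covariate in edgeR, 14 of the 34 genes fell and 4 rose. In that fit 3248 of all 18275 tested genes passed in either direction, against 5673 without the covariate. Pigment epithelium markers summed to 42.7 to 92.1 CPM in OIR and 13 to 115 CPM in normoxic libraries, and red blood cell genes, all 4 higher, to 114 to 235 and 55.5 to 132 CPM. Of the 6 oligodendrocyte markers, which would mark optic nerve, 4 were tested and 1, Cnp, rose, and they summed to 78.6 to 88.1 CPM in OIR and 60.2 to 69.2 CPM in normoxic libraries. Mbp, a myelin gene, had a log2 fold change of -0.09 and did not pass (edgeR adjusted p = 0.448). The 4 adipocyte markers summed to at most 0.795 CPM in OIR and 1.63 CPM in normoxic libraries.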

How the data were processed

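Per the labels' protocols, poly-A RNA of 12 mouse retina libraries was sequenced. The authors deposited a gene table of raw counts together with FPKM values, per the file headers. Trimmomatic, HISAT2 version 2.0.5, HTSeq and build GRCm39 are named without roles, per the submitters' processing notes. Annotation release, strand setting and read filters are not stated, and reads that fit several genes may have been lost, which bears on Fdps, Acat2 and the Scd genes.

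Groups and replicate numbers came from the titles. The test was edgeR's (version 4.0.16, under R version 4.3.3): filterByExpr (minimum count 10, total 15), TMM, quasi-likelihood test, Benjamini-Hochberg adjustment over 18275 genes, threshold 0.05. SE is the log2 fold change divided by the root of F. CPM uses TMM-scaled library sizes, and values are means ± SD over 6 libraries. Named genes were the 34 members and, from 4 lists of related genes, the 3 past the threshold with the smallest adjusted p. From these lists Abcg4, Abca2 and Abca7 were also named, as transporter genes beside Abca1 and Abcg1. Members and lists were chosen with earlier results of these data known. Other genes of the pathway are not analysed here. Alternatives used DESeq2 version 1.42.0, limma version 3.58.1 on log2(FPKM + 1) and log2(FPKM + 0.1), other filters, scalings and blocks. Chi-square over its degrees of freedom was 2.98 to 14.14 between libraries of 1 group, above sampling noise, so no library was treated as a duplicate. The procedure was tested on simulated data. Models that share bases with another gene counted at 10% or more of their level were Srebf1, Fdft1, Cyp51, Tm7sf2 and Nr1h3.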

Additional observations from a re-analysis of the deposited data

Results flagged for a closer look

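Of 92 sets of 6 libraries examined (46 genes in each group), 3 held a library set apart from the others of its group by a gap of more than 0.625 of the group's range, where chance gives about 1 in 20. Scap stood at 151 CPM in OIR replicate 5, against 124 to 134 CPM in the other OIR libraries. Cyp51 stood at 32.8 CPM in OIR replicate 5, against 37 to 38.3 CPM in the others. Nr1h2 stood at 98.7 CPM in normoxic replicate 4, against 108 to 110 CPM in the other normoxic libraries.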

How the results depend on the processing

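Over 25 alternatives, 12 of them leaving out a library, 11 of the 15 decreases (Srebf2, Insig1, Acat2, Hmgcs1, Mvk, Mvd, Fdft1, Tm7sf2, Msmo1, Nsdhl and Fasn) and 2 of the 5 increases (Pmvk and Abca1) kept direction and call. The number of genes that fell was 13 to 17 throughout. The number that rose was 3 with limma on log2(FPKM + 1) or log2(FPKM + 0.1), 3 within replicates 1 to 3, and 3 to 5 when a library was left out. The median of -0.19 became -0.1551 with limma on log2(FPKM + 1), -0.0738 within replicates 1 to 3, -0.2301 within 4 to 6 and -0.2321 to -0.154 when a library was left out. Of all genes, 5673 passed, 7226 within replicates 1 to 3, 3671 within 4 to 6, 6429 with the set of replicate numbers as a block, 3248 with the lens covariate and 5073 to 5870 when a library was left out. The cause was not tested. With the lens covariate Fdps (edgeR adjusted p = 0.0983), Mylip (0.199), Me1 (0.132) and Lbr (0.0636) lost their calls, as did Srebf1 with robust dispersion (0.052), and Srebf1 and Mylip with limma (0.0649 and 0.0574 on log2(FPKM + 1)). Genes near 0 changed sign without a call: Lss (0.0121 within 1 to 3; -0.0486 to 0.0085 when a library was left out), Ebp (0.0376 within 4 to 6, 0.0218 with the lens covariate; -0.0426 to 0.0102), Stard4 (-0.0281 and -0.035 in the same fits), Nr1h2 (-0.0057 with library totals only, -0.0067 and -0.007 with limma, -0.0533 within 1 to 3; -0.0218 to 0.0208) and Acaca (-0.001 with the lens covariate; -0.0176 to 0.0519). Deviations of same-numbered OIR and normoxic libraries had correlations of -0.027 to 0.125, and 2 of 6 OIR libraries matched their own number best. Correlations this weak cannot settle whether the numbers pair the samples, and the labels name no pairing. With the replicate block, 16 genes fell and 5 rose, Dhcr7 being the addition (adjusted p = 0.0433), and Coq2 lost its call (0.0648). Counts of 61 and 148 limit Fdps.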
